A study of Mus musculus with 12 samples.

Results

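The genes described here are 38 members of the nuclear factor kappa B (NF-kB) system of mouse cells. They comprise 5 transcription factor subunits, 5 inhibitors and nuclear cofactors of the IkB family and 5 genes grouped as feedback proteins. The rest are 6 signalling adaptors and kinases and 17 inflammatory target genes. All were chosen by gene symbol, as the rows of the deposited count table whose Ensembl identifier maps to 1 of the 38 symbols, out of 42687 rows. The symbols were listed with earlier results of these data known. All 38 were found, among them Saa3 (ENSMUSG00000040026), Clec4e (ENSMUSG00000030142) and Ptges (ENSMUSG00000050737). Of these, 34 carried enough counts to be tested, and Il1b, Il6, Cxcl1 and Vcam1 did not.

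NF-kB is a family of dimers that wait in the cytoplasm of resting cells, held there by IkB proteins. Danger signals and cytokines activate the IkB kinase complex, IkB is degraded, and the freed dimers enter the nucleus and switch on cytokines, enzymes and surface receptors of inflammation. Many of the induced genes, among them the inhibitor Nfkbia and the ubiquitin-editing enzyme Tnfaip3, shut the pathway down again, so their mRNA is a common readout of recent NF-kB activity. In dendritic cells the same pathway accompanies maturation.

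Messenger RNA was sequenced from wild-type DC2.4 cells, a dendritic cell line of the mouse, in 4 groups of 3 libraries. The first group received 15 µg/mL of ATEV, extracellular vesicles from activated T cells. The second received the same 15 µg/mL of ATEV after digestion with Baseline-ZERO DNase (DNase-treated ATEV). The third received 30 µg/mL of NTEV, vesicles from T cells without activation, and the control group received phosphate-buffered saline (PBS). The vesicle amount of the NTEV group was thus 30 against 15 µg/mL in both ATEV groups. Treatment, harvest and reseeding were done 3 times, and it is not stated whether 1 culture was treated repeatedly or the experiment was run anew. The labels name no separate cultures behind the 3 libraries of a group. P-values therefore measure only the spread between these libraries, which may be technical.

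Libraries held 19.4 to 30.4 M gene counts (1 M = 1e6), and 13261 genes were tested. On the first principal component of all tested genes, which held 34.9% of the variance, the first replicates of NTEV (-21.5) and of DNase-treated ATEV (-30.4) fell in the range of PBS (-41.8 to -14.6), while the other vesicle libraries lay at 4.41 or above. The label of a dendritic cell line was checked against markers. Of 8 dendritic cell markers, 6 had 10 or more counts over the 12 libraries. Clec9a had 0 counts and Flt3 had 6, Zbtb46 had 1700 and Batf3 had 1413, while Irf8 and Itgax were plentiful. All 8 macrophage markers listed were detected. Of 12 T cell markers 3 had 0 counts, among them Cd3e and Cd8a, and 4 had 10 or more. Lck had 2706 counts and Cd5 had 511 over the 12 libraries. In bulk samples a change in the number of cells of a type and a change in RNA per cell cannot be told apart.

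NF-kB dimers bind a 10-base DNA element, the kB consensus motif, which was searched for upstream of the transcription start. The members were listed as NF-kB genes and targets, so a high share with the motif may follow from that choice and is no separate support. Upstream windows of 250 bases were available for 31 members in the RefSeq promoter table (build GRCm38.p6), and 14 of the 31 (45.2%) held the motif on at least 1 strand, against 8.23% of all 27025 genes in that table. The sequences of 5 members on which the results turn are shown, with every match in capitals: 3 regulators of the pathway whose windows hold the motif, and the 2 target genes Saa3 and Clec4e, whose windows do not. Positions are counted back from the start site, and each sequence reads 5′ to 3′ towards it. Nfkbia (chr12:55492648-55492897, minus strand) has a match at -29 to -20, Tnip1 (chr11:54962941-54963190, minus strand) has 4 overlapping matches, counted on both strands, between -58 and -47, and the most upstream Nfkb2 start (chr19:46304487-46304736, plus strand) has overlapping matches from -39 to -29 and another at -11 to -2. Saa3 lies at chr7:46715677-46715926 and Clec4e at chr6:123289872-123290121, both on the minus strand.
Nfkbia: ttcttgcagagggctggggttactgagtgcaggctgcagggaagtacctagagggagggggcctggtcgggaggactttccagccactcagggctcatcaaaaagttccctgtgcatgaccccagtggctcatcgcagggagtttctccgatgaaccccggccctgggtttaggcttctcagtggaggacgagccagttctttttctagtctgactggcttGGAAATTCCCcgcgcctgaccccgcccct
Tnip1: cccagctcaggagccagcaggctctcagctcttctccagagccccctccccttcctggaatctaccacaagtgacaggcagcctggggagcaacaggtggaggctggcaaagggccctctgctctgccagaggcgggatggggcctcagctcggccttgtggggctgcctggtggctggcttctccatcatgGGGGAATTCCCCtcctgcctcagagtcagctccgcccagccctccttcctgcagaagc
Nfkb2: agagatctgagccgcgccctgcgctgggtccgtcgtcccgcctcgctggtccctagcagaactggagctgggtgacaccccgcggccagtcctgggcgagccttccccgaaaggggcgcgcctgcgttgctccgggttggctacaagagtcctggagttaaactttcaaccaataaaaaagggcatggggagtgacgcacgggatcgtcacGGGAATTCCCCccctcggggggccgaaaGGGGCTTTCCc
Saa3: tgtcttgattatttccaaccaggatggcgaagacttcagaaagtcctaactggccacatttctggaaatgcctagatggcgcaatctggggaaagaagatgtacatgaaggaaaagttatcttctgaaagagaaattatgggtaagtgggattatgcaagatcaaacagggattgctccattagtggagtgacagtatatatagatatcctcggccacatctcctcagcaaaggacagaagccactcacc
Clec4e: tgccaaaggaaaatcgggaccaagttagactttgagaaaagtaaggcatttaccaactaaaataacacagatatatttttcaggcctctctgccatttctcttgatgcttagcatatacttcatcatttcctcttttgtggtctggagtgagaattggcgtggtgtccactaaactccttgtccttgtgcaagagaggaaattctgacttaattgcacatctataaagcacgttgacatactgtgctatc
Among the 12 members called in any comparison below, 4 of 12 (33.3%) held the motif in such a window, and among the other 19 members with a window 10 did (52.6%). A match of letters is a description and not evidence of binding, and a window without a match says nothing of sites elsewhere.

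Cells given ATEV were first set against cells given PBS. Of 34 tested members 6 rose and none fell: the inhibitor Nfkbia, the nuclear cofactor Bcl3, the TNF-inducible protein Tnfaip2, and the targets Saa3, Ptges and Clec4e. Over all genes tested 3.32% rose and 1.42% fell at the same threshold, an adjusted p under 0.05 in edgeR's quasi-likelihood test. The median log2 fold change of the 34 was 0.52, against 0.03 for all genes. Of the 34, 28 (82.4%) were above 0, against 53.3% of all genes. Because the members were chosen with earlier results known, the values for all genes here and below are context. They lend no separate support. The count was 2 without ATEV replicate 2, PBS replicate 2 or PBS replicate 3, 3 without ATEV replicate 3 or PBS replicate 1, and 4 without ATEV replicate 1. Of the 6 calls, that of Clec4e alone was kept whichever library was omitted.

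With NTEV, 11 of the 34 members rose over PBS and none fell. They were the same 6 genes, joined by the subunit Nfkb2, the feedback proteins Tnip1 and Zc3h12a, the adaptor Traf1 and the cytokine Il1a. The PBS libraries and the fitted spread are shared with the ATEV comparison, so the 6 genes in common are not an independent repeat. Traf1 and Il1a passed the low-count filter only through the NTEV libraries, so their calls carry no separate weight. In this comparison 1.70% of all genes rose and 0.611% fell. The median over the 34 was 0.46 and over all genes -0.00275, with 27 of 34 members (79.4%) above 0, against 49.7% of all genes. The count was 1 without NTEV replicate 2, PBS replicate 2 or PBS replicate 3, 2 without NTEV replicate 3, 4 without PBS replicate 1 and 13 without NTEV replicate 1; Ptges was kept in each. Fitted on the 6 NTEV and PBS libraries alone, 1 member (Clec4e) and 19 genes in all were called.

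With DNase-treated ATEV no member was called against PBS, and none had an unadjusted p under 0.05 in edgeR. No gene at all was called in this comparison (0% higher and 0% lower); 791 genes, or 5.96%, had an unadjusted p under 0.05, DESeq2 called 35 genes and limma-voom called 0, and no member was among the DESeq2 calls. The median over the 34 was -0.02 and over all genes 0.00301, with 16 of 34 members (47.1%) above 0, against 50.5% of all genes.

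ATEV was next compared directly with its DNase-treated form. Tnf, Saa3 and Clec4e were higher with intact ATEV and no member was lower, against 1.32% of all genes higher and 0.143% lower. The median over the 34 was 0.26 and over all genes 0.00372, with 27 of 34 members (79.4%) above 0, against 50.4% of all genes. Since the ATEV libraries stand in this comparison and in that with PBS, the 2 are not independent. The call for Clec4e was kept whichever of the 6 libraries was left out. Counts of called members were 1 without ATEV replicate 3, DNase-treated ATEV replicate 2 or DNase-treated ATEV replicate 3.

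Between ATEV and NTEV no member was called in edgeR, against 0.875% of all genes higher and 0.0603% lower with ATEV. Here 5 members and 1775 genes had an unadjusted p under 0.05, DESeq2 called 1 member, Tnip1, and limma-voom called none. The median log2 fold change over the 34 was -0.16 and over all genes -0.00998. The 95% interval was -0.44 to 0.13 for Nfkbia, -0.99 to 0.12 for Ptges and -0.38 to 0.51 for Clec4e. A missed threshold does not show equal levels, and the vesicle amounts differed.

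**Figure D1:**
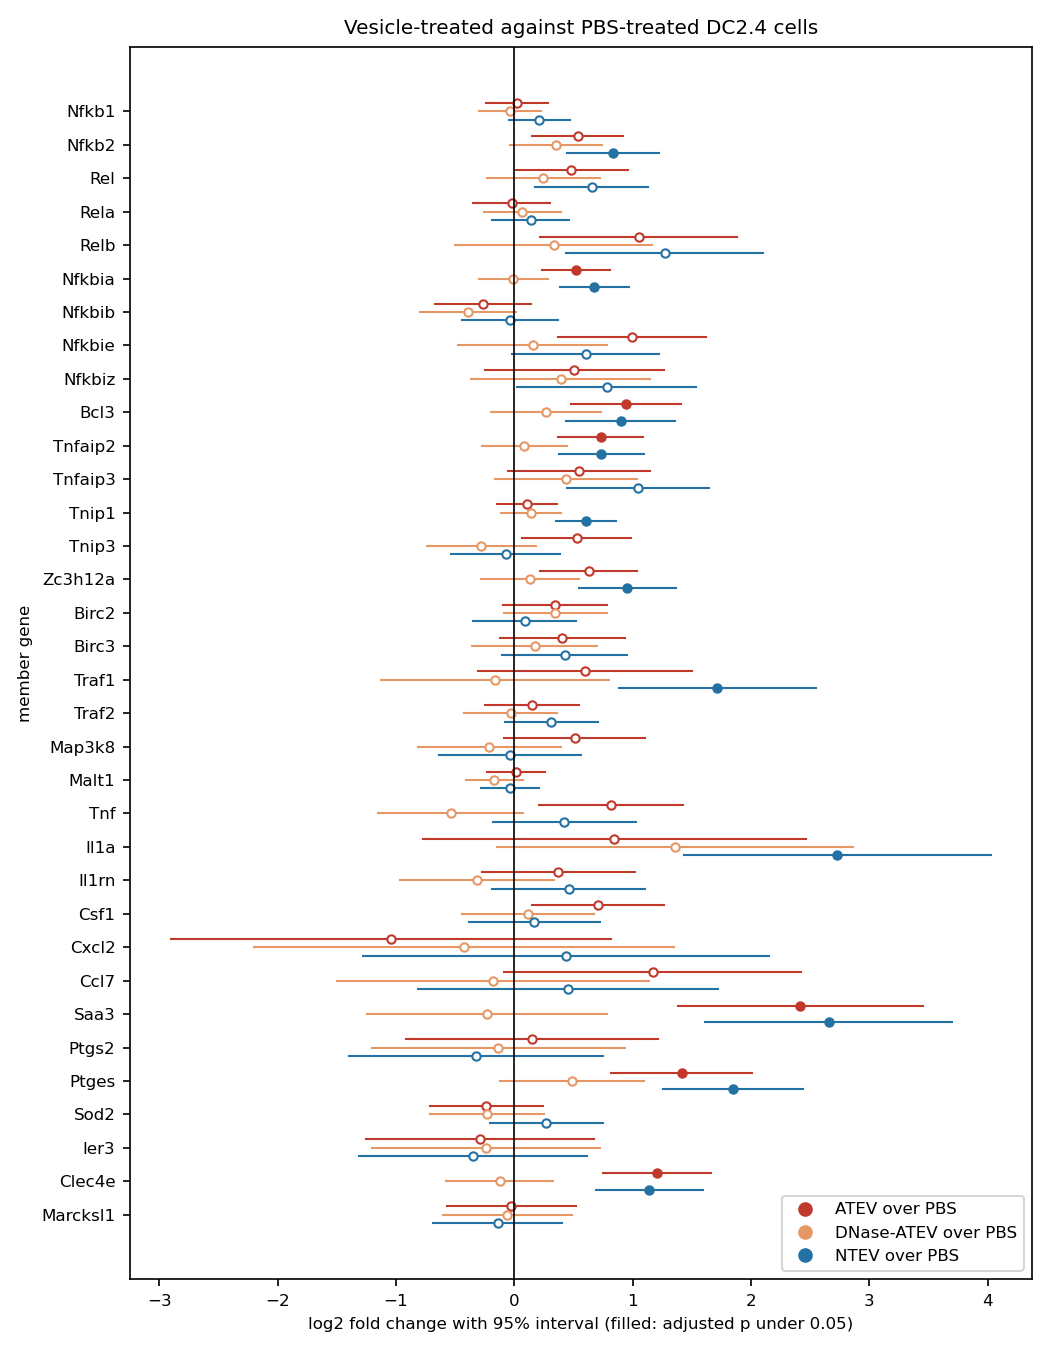
Log2 fold changes of the 34 tested members (rows, by role) with 95% intervals, for ATEV over PBS, DNase-treated ATEV over PBS and NTEV over PBS; filled points passed an adjusted p of 0.05. The filled points number 6 for ATEV, 0 for DNase-treated ATEV and 11 for NTEV, and all lie right of 0.

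Among the subunits, Nfkb2 and Relb, the pair that forms the alternative pathway's p52/RelB dimer, had the largest fold changes against PBS with each of the 3 vesicle preparations. Rela, the main activating subunit of the canonical pathway, lay nearer to 0 than both in each. Nfkb2 had 75.5, 49.4 and 49.7 CPM with ATEV, 47.1, 48.6 and 58.1 CPM with DNase-treated ATEV, 65.9, 83.1 and 65.6 CPM with NTEV and 45.8, 40.1 and 34.6 CPM with PBS (CPM is counts per 1e6 normalised counts, libraries in replicate order). All 9 vesicle libraries lay above the 3 PBS libraries. Nfkb2 rose with NTEV (log2 fold change 0.83 ± 0.18 (SE), adjusted p = 0.0324), but its values for ATEV (0.53 ± 0.18, adjusted p = 0.0942) and DNase-treated ATEV (0.35 ± 0.18, adjusted p = 0.824) did not pass; with no filter the ATEV difference did (adjusted p = 0.0411). The NTEV call was lost without NTEV replicate 2 or 3 or any 1 PBS library (adjusted p up to 0.152). Opposite-strand genes share 11.6% and 6.52% of its exon bases, and reads there cannot be told apart without the strand setting of the counting.

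Relb, whose transcript is itself an NF-kB target, had 27.8, 15.1 and 11.6 CPM with ATEV, 7.03, 9.71 and 16.4 CPM with DNase-treated ATEV, 13.5, 31.8 and 18.4 CPM with NTEV and 10.2, 9.20 and 6.98 CPM with PBS. ATEV and NTEV libraries all exceeded PBS, with ATEV replicate 1 and NTEV replicate 2 far above their group mates. Neither ATEV (1.05 ± 0.39, adjusted p = 0.117) nor NTEV (1.27 ± 0.39, adjusted p = 0.105) passed the test; without NTEV replicate 1 the NTEV difference was called (adjusted p = 0.0264), as it was with DESeq2 (0.0207) and no filter (0.00173). The ATEV difference was called on the 6 libraries alone (0.0483) and with no filter (0.0104).

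Rel, which encodes the c-Rel subunit of activated lymphoid and myeloid cells, had 35.1, 46.4 and 35.2 CPM with ATEV, 28.4, 40.5 and 30.2 CPM with DNase-treated ATEV, 33.9, 61.2 and 36.4 CPM with NTEV and 26.2, 25.3 and 32.1 CPM with PBS. NTEV replicate 2 was the highest library of all 12, and every ATEV and NTEV library lay above PBS. The differences were 0.48 ± 0.22 for ATEV (adjusted p = 0.185) and 0.65 ± 0.22 for NTEV (adjusted p = 0.140), and NTEV over PBS passed without NTEV replicate 1 (adjusted p = 0.0338) and with no filter (0.0244).

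Nfkb1, the precursor of p50, had 122, 113 and 103 CPM with ATEV, 109.9, 109 and 105 CPM with DNase-treated ATEV, 144, 129.7 and 112 CPM with NTEV and 121, 111 and 101 CPM with PBS, and Rela had 76.8, 56.8 and 49.99 CPM, 64.3, 63.4 and 67.6 CPM, 72.9, 66.3 and 65.9 CPM and 68.6, 64.5 and 53.5 CPM in the same groups. The groups overlapped for both genes. The 95% interval of the log2 fold change was -0.24 to 0.28 for Nfkb1 and -0.35 to 0.30 for Rela with ATEV, and -0.05 to 0.47 and -0.19 to 0.46 with NTEV. Per kilobase of exon sequence, Rela was the most abundant subunit in PBS cells at 20.2 CPM per kb. Nfkb1 (9.20) and Nfkb2 (8.77) followed, then Rel (3.74) and Relb (2.26); lengths are the joined exons of all GENCODE M21 transcripts and run longer than any 1 mRNA.

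Of the IkB family, Nfkbia and Bcl3 rose with both vesicle types. Nfkbia encodes IkBα, the inhibitor that NF-kB resynthesises to end its own response. It had 37.1, 30.1 and 33.3 CPM with ATEV, 22.2, 20.6 and 26.7 CPM with DNase-treated ATEV, 38.6, 39.1 and 34.3 CPM with NTEV and 22.0, 22.8 and 25.3 CPM with PBS. Every ATEV and NTEV library lay above every library of the other 2 groups, which overlapped each other. The log2 fold change was 0.52 ± 0.13 for ATEV (adjusted p = 0.0453) and 0.68 ± 0.13 for NTEV (adjusted p = 0.0228). For DNase-treated ATEV the 95% interval was -0.30 to 0.28, and ATEV over DNase-treated ATEV missed the threshold (0.53 ± 0.13, adjusted p = 0.0799) and passed it with DESeq2 (0.0100). Omitting any single library ended the ATEV call (adjusted p up to 0.176), and the NTEV call was lost without any 1 PBS library or NTEV replicate 2 or 3 (up to 0.114).

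Bcl3, a nuclear IkB protein that partners p50 and p52 dimers on DNA, had 21.4, 18.4 and 17.8 CPM with ATEV, 8.91, 12.9 and 14.3 CPM with DNase-treated ATEV, 16.4, 24.3 and 15.2 CPM with NTEV and 10.3, 8.54 and 11.1 CPM with PBS. ATEV and NTEV libraries all lay above PBS, and the DNase-treated group lay between and overlapped PBS. It rose by 0.94 ± 0.22 with ATEV (adjusted p = 0.0283) and by 0.90 ± 0.21 with NTEV (adjusted p = 0.0472) on the log2 scale. The ATEV call ended whichever library was omitted (adjusted p up to 0.140), and the NTEV call was lost without NTEV replicate 2 or 3 or any 1 PBS library (up to 0.194), and also with the replicate number as a block and with limma-voom. An antisense gene shares 6.51% of Bcl3's exon bases, and the strand setting of the counting is not given in the sources used here.

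Nfkbie, which encodes IkBε, averaged 11.8 ± 3.01 CPM with ATEV, 6.56 ± 1.77 CPM with DNase-treated ATEV, 8.96 ± 3.72 CPM with NTEV and 5.91 ± 0.393 CPM with PBS (SD, n = 3). Its ATEV libraries were all above PBS (1.00 ± 0.29, adjusted p = 0.0648), short of the threshold; the difference was called with DESeq2 (adjusted p = 0.0148), on the 6 libraries alone (0.0206) and with no filter (0.00866). Nfkbiz, the cofactor IkBζ that opens secondary response genes, was variable within groups, from 13.9 to 37.4 CPM among DNase-treated libraries, and of all fits run was called only for NTEV over PBS with no filter (adjusted p = 0.0493). Nfkbib, the inhibitor IkBβ, had negative values in all 3 comparisons with PBS (-0.26 with ATEV, -0.39 with DNase-treated ATEV and -0.04 with NTEV), none called.

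Of the 5 members grouped as feedback proteins, Tnfaip2 alone rose with ATEV, and Tnfaip2, Tnip1 and Zc3h12a rose with NTEV. Tnfaip2 is a TNF-inducible protein, and its rise is not read as feedback on the pathway. Tnip1, which brings the deubiquitinase A20 to its targets, had 74.0, 76.6 and 64.7 CPM with ATEV, 73.3, 72.0 and 74.6 CPM with DNase-treated ATEV, 115, 94.3 and 94.6 CPM with NTEV and 71.8, 66.1 and 61.8 CPM with PBS. The 3 NTEV libraries lay above the other 9. Tnip1 rose with NTEV (0.60 ± 0.12, adjusted p = 0.0200) and stood at 0.11 ± 0.12 with ATEV (adjusted p = 0.566). ATEV over NTEV gave -0.50 ± 0.12 (adjusted p = 0.0798) in edgeR, while DESeq2 called that difference (adjusted p = 0.00567). The NTEV call was lost without NTEV replicate 2 or 3 or PBS replicate 2 or 3 (adjusted p up to 0.127).

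Zc3h12a encodes Regnase-1, an RNase that degrades inflammatory mRNAs such as that of Il6. It had 15.5, 19.3 and 17.97 CPM with ATEV, 8.86, 13.7 and 14.8 CPM with DNase-treated ATEV, 24.4, 21.5 and 20.2 CPM with NTEV and 10.3, 10.8 and 13.0 CPM with PBS. NTEV libraries were highest, ATEV libraries came next, and both groups were clear of PBS. It rose with NTEV (0.95 ± 0.19, adjusted p = 0.0229), and with ATEV it missed the threshold (0.63 ± 0.19, adjusted p = 0.0728), which it passed with DESeq2 (adjusted p = 0.0225), on the 6 libraries alone (0.0388) and with no filter (0.0406). The NTEV call was lost without NTEV replicate 2 or 3 or any 1 PBS library (adjusted p up to 0.110).

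Tnfaip2, a TNF-inducible protein of membrane protrusions, had 272, 307 and 256 CPM with ATEV, 161, 190.0 and 183 CPM with DNase-treated ATEV, 204, 323 and 311 CPM with NTEV and 148, 182 and 173 CPM with PBS. ATEV and NTEV lay wholly above the PBS and DNase-treated groups, with NTEV replicate 1 the lowest of the 6. It rose with ATEV (0.73 ± 0.17, adjusted p = 0.0291) and with NTEV (0.73 ± 0.17, adjusted p = 0.0395), and ATEV over DNase-treated ATEV was 0.65 ± 0.17 (adjusted p = 0.0891). That last difference was called with the replicate block (adjusted p = 0.0284), with DESeq2 (0.0113) and with no filter (0.0232). The ATEV call was kept without ATEV replicate 1 alone, and the NTEV call without NTEV replicate 1 alone (adjusted p up to 0.125 and 0.174 in the others); limma-voom also ended the NTEV call. An opposite-strand gene shares 6.30% of its exon bases.

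Tnfaip3, which encodes A20 itself, averaged 21.4 ± 3.21 CPM with ATEV, 19.8 ± 5.47 CPM with DNase-treated ATEV, 30.3 ± 14.1 CPM with NTEV and 14.6 ± 1.52 CPM with PBS (SD, n = 3). NTEV replicate 3 stood at 46.6 CPM against 22.2 and 22.1 CPM in the other NTEV libraries. The NTEV difference was 1.05 ± 0.28 (adjusted p = 0.0687) and was called without NTEV replicate 1 (adjusted p = 0.0176), in DESeq2 (0.00805), with the replicate number as a block (0.0479) and with no filter (0.00121). Tnip3, a relative of Tnip1, was highest with ATEV, at 36.1 ± 6.73 CPM with ATEV, 20.6 ± 4.91 CPM with DNase-treated ATEV, 23.8 ± 4.64 CPM with NTEV and 25.1 ± 4.08 CPM with PBS (SD, n = 3). Its 3 ATEV libraries lay above the NTEV and DNase-treated libraries but overlapped PBS; ATEV over DNase-treated ATEV was 0.81 ± 0.21 (adjusted p = 0.0968), and called without ATEV replicate 1 (adjusted p = 0.0382), with DESeq2 (0.0230) and with no filter (0.0102).

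Of the signalling adaptors and kinases Traf1 alone was called. Traf1, an adaptor of TNF receptors that NF-kB induces, was scarce, with 18, 9 and 9 counts with ATEV, 3, 9 and 10 with DNase-treated ATEV, 27, 34 and 29 with NTEV and 11, 7 and 8 with PBS. The NTEV libraries stood above the 9 others. Without the NTEV libraries Traf1 would not have passed the low-count filter, so its being tested depended on them. Mean levels were 1.24 ± 0.274 CPM with NTEV and 0.371 ± 0.0599 CPM with PBS (SD, n = 3), and the log2 fold change was 1.72 ± 0.39 (adjusted p = 0.0380). That call was lost without NTEV replicate 2 or 3 or any 1 PBS library (adjusted p up to 0.160), with limma-voom and with the replicate block. The ubiquitin ligases Birc2 and Birc3, the adaptor Traf2, the kinase Map3k8 and the paracaspase Malt1 were not called in any of the 5 comparisons. Their log2 fold changes for ATEV over PBS ran from 0.01 for Malt1 to 0.51 for Map3k8. Malt1, which couples antigen receptors to the IkB kinases, had a 95% interval of -0.23 to 0.26 for ATEV and -0.28 to 0.20 for NTEV.

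**Figure D2:**
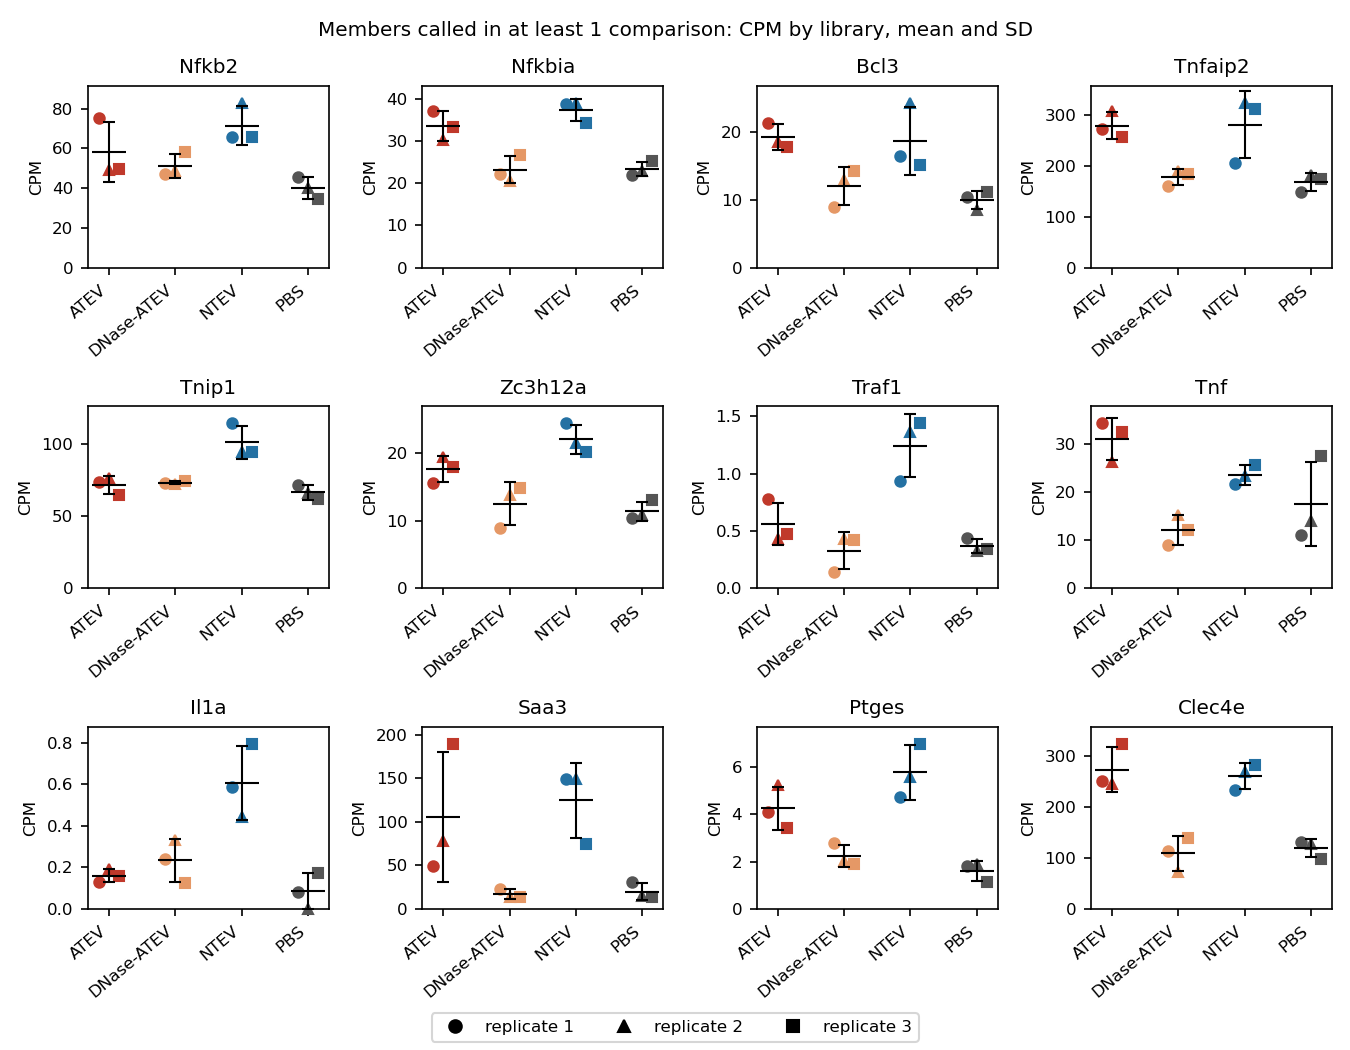
CPM of the 12 members called in at least 1 comparison, by group (x axis) and library (marker shape gives the replicate), with mean and SD as black bars. For Saa3 the ATEV and NTEV libraries lie at 48.6 CPM or above and the DNase-treated ATEV and PBS libraries at 31.0 CPM or below, and for Tnip1, Traf1 and Il1a the NTEV libraries lie above all others. Traf1 and Il1a passed the low-count filter only through the NTEV libraries.

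Tnf was the member cytokine with a difference between intact and DNase-treated ATEV. It had 34.4, 26.2 and 32.5 CPM with ATEV and 8.96, 15.2 and 12.2 CPM with DNase-treated ATEV, then 21.7, 23.5 and 25.7 CPM with NTEV and 11.1, 14.1 and 27.6 CPM with PBS. ATEV and DNase-treated libraries did not overlap, whereas PBS replicate 3 lay among the vesicle libraries. Tnf was higher with ATEV than with DNase-treated ATEV (1.36 ± 0.29, adjusted p = 0.0319), a call lost without ATEV replicate 2 or 3 or any 1 DNase-treated library (adjusted p up to 0.117). Against PBS its values were 0.82 ± 0.28 for ATEV (adjusted p = 0.0992), -0.54 ± 0.29 for DNase-treated ATEV (adjusted p = 0.826) and 0.42 ± 0.28 for NTEV (adjusted p = 0.425). Without PBS replicate 3 the ATEV difference was 1.29 and called (adjusted p = 0.00926), as it was with all libraries in DESeq2 (0.0416) and with no filter (0.0120).

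Il1a, an alarmin that acts through the IL-1 receptor, was near the detection floor and highest with NTEV. Its counts were 3, 4 and 3 with ATEV, 5, 7 and 3 with DNase-treated ATEV, 17, 11 and 16 with NTEV and 2, 0 and 4 with PBS. The NTEV libraries held more than any of the other 9. It rose with NTEV (2.73 ± 0.60, 95% interval 1.43 to 4.03, adjusted p = 0.0348), and ATEV over NTEV was -1.88 ± 0.55 (adjusted p = 0.176). Il1a passed the low-count filter only through the NTEV libraries, so its being tested at all depended on its NTEV level. The NTEV call was lost in each of the 5 leave-one-out fits that still tested the gene (adjusted p up to 0.147) and with the replicate block. An opposite-strand transcript shares 11.2% of its exon bases.

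Il1b, the main secreted IL-1, was too low to test, with 1, 5 and 5 counts with ATEV, 2, 1 and 2 with DNase-treated ATEV, 0, 1 and 7 with NTEV and 2, 0 and 0 with PBS. The ratio of ATEV to PBS counts, 11 to 2, was 6.07 with a 95% counting interval of 1.32 to 56.3, which covers counting error and not the spread between libraries. With low genes left in the fit its adjusted p was 0.256. Il6, a cytokine that many stimulated dendritic cells secrete, had 2 counts in ATEV replicate 1 and 0 in the other 11 libraries. Il1rn, the decoy ligand that blocks the IL-1 receptor, averaged 23.0 ± 1.76 CPM with ATEV, 14.3 ± 7.86 CPM with DNase-treated ATEV, 24.5 ± 3.65 CPM with NTEV and 17.8 ± 4.23 CPM with PBS (SD, n = 3). DNase-treated replicate 1, at 23.1 CPM, lay apart from its group mates at 7.95 and 11.9 CPM; without it ATEV over DNase-treated ATEV was called (1.22, adjusted p = 0.0288), and with it the value was 0.69 ± 0.30 (adjusted p = 0.305).

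Csf1, the growth factor of macrophages, had 443, 322 and 194 CPM with ATEV, 191, 178 and 268 CPM with DNase-treated ATEV, 197, 232 and 231 CPM with NTEV and 178, 246 and 164 CPM with PBS. ATEV replicates 1 and 2 were the 2 highest libraries of the 12, and ATEV replicate 3 lay within the PBS range. It was not called (0.71 ± 0.26, adjusted p = 0.115); it was called without ATEV replicate 3 (0.98, adjusted p = 0.0444) and with no filter on low counts (0.0189).

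Member chemokines were low or absent. Cxcl1, a neutrophil attractant, had 0 counts in all 12 libraries, which allows up to 3 counts in each. Cxcl2, its close relative, had 28, 5 and 28 counts with ATEV, 8, 9 and 86 with DNase-treated ATEV, 84, 30 and 83 with NTEV and 94, 33 and 16 with PBS. All 4 groups overlapped, and no comparison called it. The monocyte attractant Ccl7 averaged 2.72 ± 1.57 CPM with ATEV, 1.06 ± 0.961 CPM with DNase-treated ATEV, 1.63 ± 0.554 CPM with NTEV and 1.19 ± 0.473 CPM with PBS (SD, n = 3), with ATEV replicate 3 highest at 4.51 CPM, and was not called.

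Saa3 had the largest fold change of any called member against PBS with ATEV. It encodes an acute-phase serum amyloid A protein made by mouse macrophages and other cells outside the liver. It had 48.6, 77.9 and 189.8 CPM with ATEV, 23.1, 14.0 and 13.4 CPM with DNase-treated ATEV, 149, 149 and 74.8 CPM with NTEV and 31.0, 15.1 and 13.1 CPM with PBS. All ATEV and NTEV libraries lay above all DNase-treated and PBS libraries, and ATEV replicate 3 was the highest of the 12. The log2 fold change was 2.42 ± 0.48 for ATEV (adjusted p = 0.0140), 2.66 ± 0.48 for NTEV (adjusted p = 0.0169) and 2.65 ± 0.49 for ATEV over DNase-treated ATEV (adjusted p = 0.0130). DNase-treated ATEV over PBS had a 95% interval of -1.25 to 0.78, and ATEV over NTEV one of -1.21 to 0.73. The ATEV call was lost without ATEV replicate 3 or PBS replicate 2 or 3 (adjusted p up to 0.0915), the NTEV call without NTEV replicate 2 or PBS replicate 2 or 3 (up to 0.0932), and the call between the ATEV groups without ATEV replicate 3 or DNase-treated replicate 2 or 3 (up to 0.0955).

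Clec4e, also called Mincle, is a lectin receptor of myeloid cells that senses mycobacterial glycolipids and products of dead cells. It had 251, 244 and 325 CPM with ATEV, 114, 72.8 and 139.5 CPM with DNase-treated ATEV, 234, 268 and 284 CPM with NTEV and 131, 127 and 98.3 CPM with PBS. The ATEV and NTEV libraries lay at 234 CPM or above and the other 6 at 139.5 CPM or below. Clec4e rose with ATEV (1.20 ± 0.21, adjusted p = 0.00654) and NTEV (1.14 ± 0.21, adjusted p = 0.0169), and was higher with ATEV than with DNase-treated ATEV (1.33 ± 0.21, adjusted p = 0.00525). DNase-treated ATEV over PBS had a 95% interval of -0.57 to 0.32. Both calls that involve ATEV were kept with any 1 library left out (adjusted p up to 0.0381 against PBS and 0.0326 against DNase-treated ATEV); that for NTEV was lost without NTEV replicate 2 or 3 or PBS replicate 2 or 3 (up to 0.100).

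Ptges, the inducible enzyme that completes prostaglandin E2 synthesis, had 4.09, 5.25 and 3.45 CPM with ATEV, 2.79, 2.04 and 1.92 CPM with DNase-treated ATEV, 4.73, 5.61 and 7.01 CPM with NTEV and 1.80, 1.88 and 1.12 CPM with PBS. The order of groups was NTEV, ATEV, DNase-treated ATEV and PBS; all 9 vesicle libraries lay above the 3 PBS libraries, and NTEV and ATEV overlapped. Ptges rose with NTEV (1.85 ± 0.27, adjusted p = 0.00705), a call kept with any 1 library left out (adjusted p up to 0.0425), and with ATEV (1.41 ± 0.28, adjusted p = 0.0125), a call lost without ATEV replicate 2 or PBS replicate 3 (up to 0.0679). DNase-treated ATEV over PBS was 0.49 ± 0.28 (adjusted p = 0.826), and ATEV over DNase-treated ATEV was 0.92 ± 0.27 (adjusted p = 0.131), called with DESeq2 alone of the alternatives (0.0356). Ptgs2, the cyclooxygenase that supplies the substrate of Ptges, was not called and averaged 13.5 ± 9.08 CPM with ATEV, 11.1 ± 7.70 CPM with DNase-treated ATEV, 9.80 ± 3.40 CPM with NTEV and 12.3 ± 3.67 CPM with PBS (SD, n = 3). ATEV replicate 1 and DNase-treated replicate 3, at 24.0 and 19.7 CPM, were its highest libraries.

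Sod2, the mitochondrial superoxide dismutase, Ier3, an immediate early survival gene, and Marcksl1, an actin-linked protein kinase C substrate, were not called in any comparison. Their log2 fold changes against PBS ran from -0.29 (Ier3) to -0.02 (Marcksl1) with ATEV and from -0.35 (Ier3) to 0.27 (Sod2) with NTEV. Ier3 spread from 20.2 to 79.3 CPM among the 3 DNase-treated libraries. Vcam1, an adhesion molecule of activated endothelium, had 1 count in ATEV replicate 3 and 1 in PBS replicate 1.

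Lyz2, the myeloid lysozyme on the macrophage marker list, was high in the groups where Saa3 and Clec4e were high. It lay at 2468 to 5413 CPM with ATEV, 1198 to 1449 with DNase-treated ATEV, 2529 to 3170.0 with NTEV and 1452 to 1885 with PBS, and rose with ATEV (1.22, adjusted p = 0.0113) but was not called with NTEV (0.78, adjusted p = 0.0985). All 8 macrophage markers summed to 4697 to 7756 CPM with ATEV, 3209 to 3493 with DNase-treated ATEV, 5126 to 5575 with NTEV and 3374 to 4031 with PBS. Without Lyz2 the other 7 summed to 2229 to 2612, 1912 to 2067, 2405 to 2597 and 1922 to 2269.6 CPM. ATEV then overlapped PBS but lay above DNase-treated ATEV, and NTEV lay above PBS. The list did not move as one: Fcgr1, an IgG receptor, rose with ATEV (0.73, adjusted p = 0.0453) and stood at -0.54 with NTEV (adjusted p = 0.153), and Csf1r, the receptor of Csf1, stood at 0.00439 with ATEV and -0.24 with NTEV, neither called. The other 5 were not called with ATEV or NTEV. For the 8 dendritic cell markers the sums were 206 to 231, 136 to 166, 155 to 177 and 131 to 147 CPM in the same groups. These sums were mostly Irf8 and Itgax (33383 and 8794 counts over the 12 libraries), so they do not show the 8 markers moving together. The 12 T cell markers summed to 10.4 to 20.2, 8.67 to 17.9, 9.42 to 12.5 and 7.97 to 10.3 CPM, mostly Lck. The 6 fibroblast markers summed to 0.525 to 4.82, 0.770 to 2.84, 2.31 to 3.83 and 1.08 to 3.60 CPM, and the 6 B cell markers to at most 0.474 CPM in any library. The part of these markers in the results was not tested.

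Single libraries carried different parts of the list. ATEV replicate 1 was the highest of its group for 16 of the 34 members, among them Relb, Nfkbie, Nfkb2, Csf1 and Ptgs2, but the lowest for Saa3. DNase-treated replicate 3 was the highest of its group for 17 members and stood out for Relb, Nfkbiz, Cxcl2, Ptgs2 and Ier3, while replicate 1 was lowest for 16. NTEV replicate 2 was highest for 12, among them Relb, Rel, Nfkbie and Birc3, and NTEV replicates 1 and 3 for 11 each. In the PBS group, replicate 1 was the highest for 17 members and replicate 3 the lowest for 18.

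**Figure D3:**
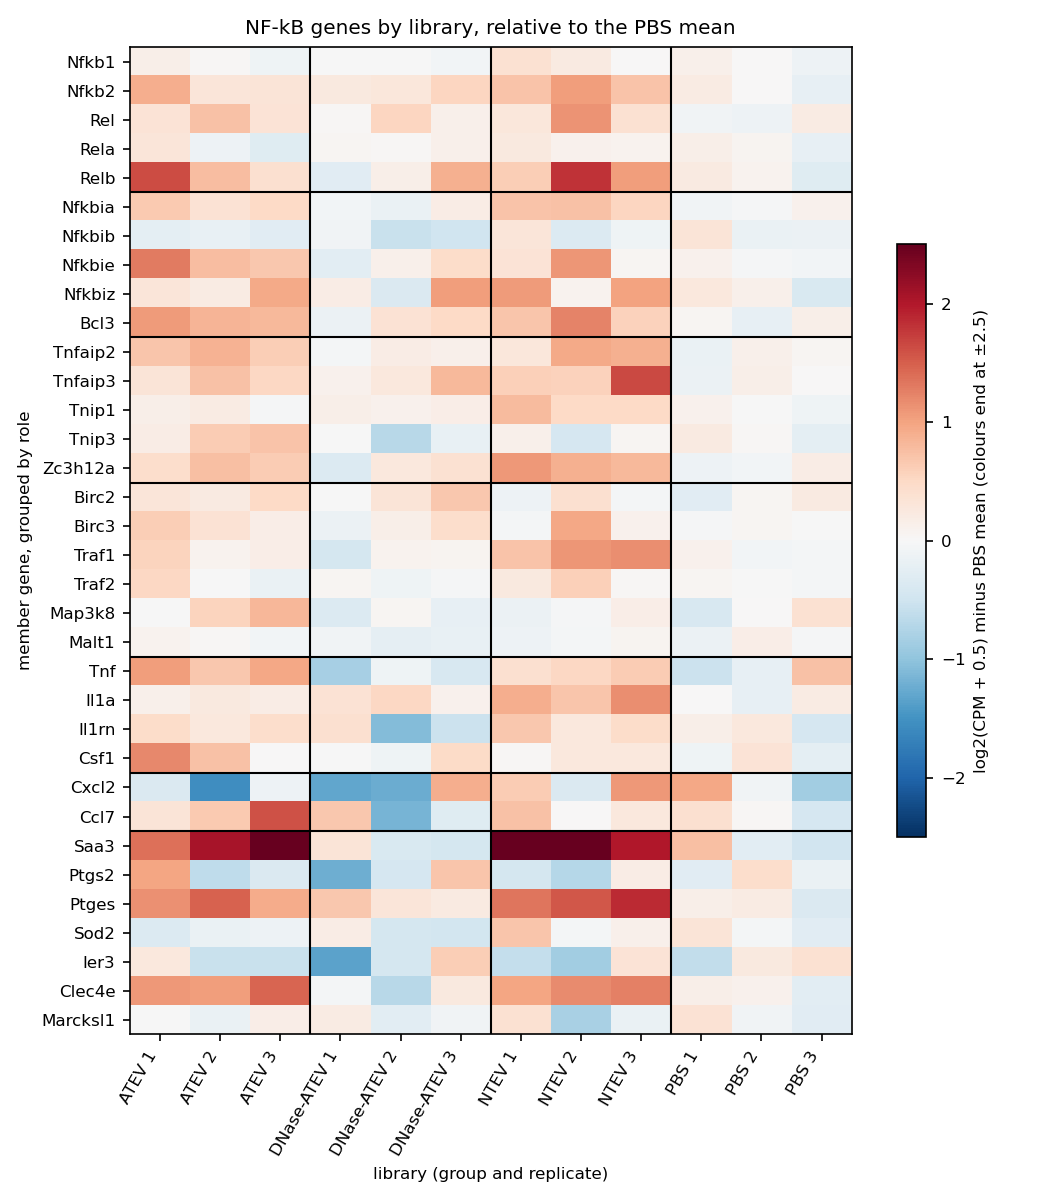
Log2(CPM + 0.5) of the 34 tested members (rows, by role) in each of the 12 libraries (columns), minus the mean of the PBS libraries; red is higher and blue lower than PBS, and colours end at 2.5. Saa3, Clec4e and Ptges are red in all 6 ATEV and NTEV libraries, while Relb is strongest in ATEV replicate 1 and NTEV replicate 2.

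**Figure D4:**
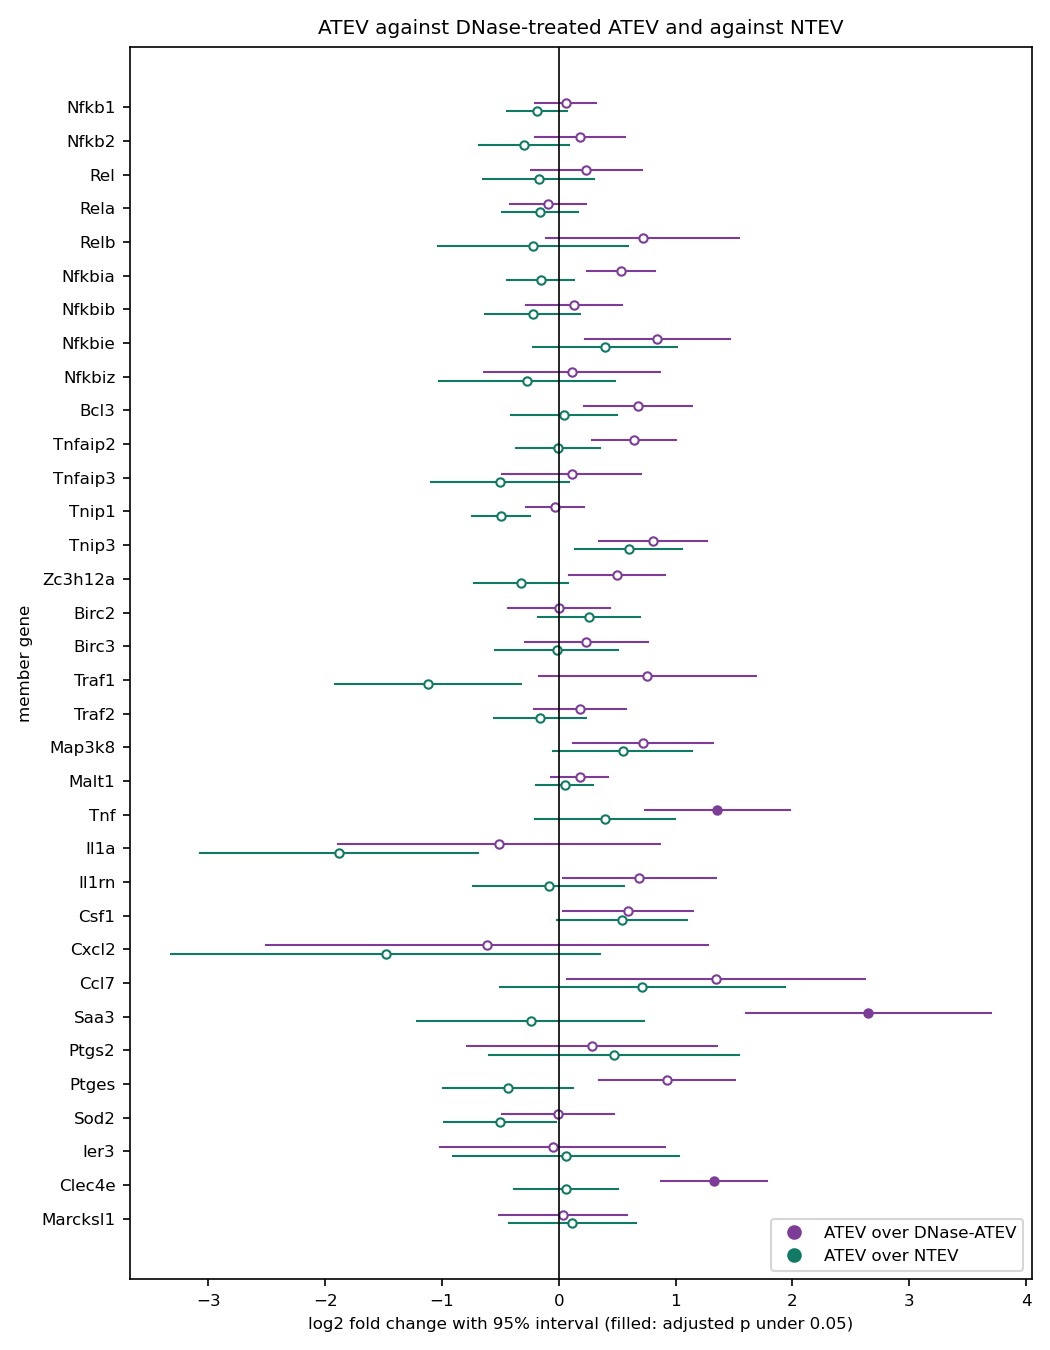
Log2 fold changes of the 34 tested members with 95% intervals for ATEV over DNase-treated ATEV and for ATEV over NTEV; filled points passed an adjusted p of 0.05. The 3 filled points are Tnf, Saa3 and Clec4e for ATEV over DNase-treated ATEV, and Tnip1, Traf1 and Il1a lie left of 0 for ATEV over NTEV without passing.

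The rest of the pathway was read from 5 further lists with 81 genes in all. Among 25 genes of the IkB kinase complex and its upstream signalling, all tested, 2 rose with ATEV and 2 with NTEV against PBS, and none fell. Counts in these lists stand beside shares over all genes of 3.32% higher and 1.42% lower for ATEV over PBS, 1.70% and 0.611% for NTEV over PBS, 1.32% and 0.143% for ATEV over DNase-treated ATEV, and 0.875% and 0.0603% for ATEV over NTEV. The lists were chosen with earlier results known, and nothing particular to a list is read from its count. Ikbke, a kinase related to the IkB kinases, rose with ATEV to 66.1 ± 7.06 CPM against 35.1 ± 7.14 CPM with PBS (SD, n = 3; 0.91 ± 0.17, adjusted p = 0.00878) and was higher with ATEV than with DNase-treated ATEV (1.00 ± 0.17, adjusted p = 0.00698), the list's only member called in that comparison. Irak2, a kinase below Toll-like and IL-1 receptors, rose with ATEV (0.84 ± 0.20, adjusted p = 0.0309). Its DNase-treated ATEV and NTEV libraries also all lay above PBS (0.72 ± 0.20, adjusted p = 0.562, and 0.55 ± 0.20, adjusted p = 0.158), neither called. ATEV over DNase-treated ATEV was 0.12 ± 0.19 for Irak2. With NTEV the members that rose were Irak3, an inhibitory kinase of the same family (0.82 ± 0.14, adjusted p = 0.0131), and Ikbkg, the regulatory subunit of the IkB kinase complex (0.60 ± 0.13, adjusted p = 0.0287). The list's median was 0.06 with ATEV and 0.02 with NTEV.

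None of 18 tested ubiquitin-editing enzymes and other negative regulators was called in any of the 5 comparisons, with medians of 0.09 for ATEV and 0.06 for NTEV over PBS. Of 11 tested receptors for the cytokines and related ligands, Cd40, through which T cells license dendritic cells, and Tnfrsf1b, the second TNF receptor, rose with ATEV (1.55 ± 0.26, adjusted p = 0.00546; 0.72 ± 0.15, adjusted p = 0.0152). Il6ra, the IL-6 receptor chain, fell with ATEV to 94.8 ± 16.2 CPM against 147 ± 6.44 CPM with PBS (SD, n = 3; -0.63 ± 0.16, adjusted p = 0.0393). Cd40 was also higher with ATEV than with DNase-treated ATEV (1.57 ± 0.26, adjusted p = 0.00748). None of these receptors was called with NTEV, yet their NTEV levels also lay away from PBS. Il6ra averaged 95.6 ± 13.6 CPM with NTEV. Tnfrsf1b averaged 224 ± 23.5 CPM against 149 ± 9.43 CPM with PBS, and Cd40 18.2 ± 5.86 against 8.95 ± 2.34 CPM (SD, n = 3). Between ATEV and NTEV, 0 of the 11 receptors had an unadjusted p under 0.05 in edgeR.

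In the list of 8 tested prostaglandin and IL-1 processing genes, the inflammasome protease Casp1 and its adaptor Pycard rose with ATEV (1.09 ± 0.18, adjusted p = 0.00475; 0.80 ± 0.17, adjusted p = 0.0195). Casp1 was higher with ATEV than with NTEV (1.01 ± 0.18, adjusted p = 0.0141), the list's sole call there. Both were higher with ATEV than with DNase-treated ATEV (1.03 ± 0.18, adjusted p = 0.0100; 0.91 ± 0.17, adjusted p = 0.0136).

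Of 14 tested survival, adhesion and other targets, Cxcl16, Lcn2, Bcl2l1 and Plau rose with ATEV, by 2.04 ± 0.27 (adjusted p = 9.10e-04), 2.18 ± 0.40 (adjusted p = 0.00962), 0.64 ± 0.14 (adjusted p = 0.0248) and 1.04 ± 0.27 (adjusted p = 0.0432). With NTEV Lcn2 and Cxcl16 rose. Lcn2, the siderophore-binding lipocalin, averaged 3.19 ± 0.177 CPM with ATEV, 1.27 ± 0.623 CPM with DNase-treated ATEV, 18.9 ± 6.74 CPM with NTEV and 0.692 ± 0.304 CPM with PBS (SD, n = 3). It was the list's only gene called between vesicle types, lower with ATEV than with NTEV (-2.56 ± 0.35, adjusted p = 0.00204), and its NTEV rise over PBS was 4.75 ± 0.41 (adjusted p = 3.14e-04). Cxcl16, Bcl2l1 and Icam1 were higher with ATEV than with DNase-treated ATEV, by 1.43 ± 0.26 (adjusted p = 0.0136), 0.64 ± 0.14 (adjusted p = 0.0428) and 0.50 ± 0.10 (adjusted p = 0.0282).

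Of the 24 calls in these lists, 6 were kept whichever library was omitted: Cd40, Casp1 and Cxcl16 for ATEV over PBS, Lcn2 for NTEV over PBS and for ATEV over NTEV, and Ikbke for ATEV over DNase-treated ATEV. For ATEV over PBS, Ikbke (adjusted p = 0.0530) and Lcn2 (0.0640) were lost without PBS replicate 2 alone. Tnfrsf1b was lost without ATEV replicate 2 or PBS replicate 1 or 2 (up to 0.0832), and Irak2 without ATEV replicate 1 or 2 or PBS replicate 1 or 2 (up to 0.132). Pycard was lost without ATEV replicate 2 or 3 or PBS replicate 1 or 2 (up to 0.0943), and Bcl2l1 without ATEV replicate 2 or any 1 PBS library (up to 0.114). Il6ra was kept without ATEV replicate 2 alone and Plau without ATEV replicate 1 alone (up to 0.138 and 0.159 in the other fits).

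For NTEV over PBS, Ikbkg was kept without NTEV replicate 1 alone (adjusted p up to 0.151 in the other fits). Irak3 was lost without NTEV replicate 2 or PBS replicate 2 or 3 (up to 0.0848), and Cxcl16 without NTEV replicate 2 or 3 or PBS replicate 2 or 3 (up to 0.157); the replicate block and limma-voom also ended the Cxcl16 call. For ATEV over NTEV, Casp1 was lost without ATEV replicate 3 or NTEV replicate 2 or 3 (up to 0.0915). For ATEV over DNase-treated ATEV, Cd40 was lost without DNase-treated replicate 2 (0.0582) and Casp1 without DNase-treated replicate 2 or 3 (up to 0.0769). Pycard was lost without ATEV replicate 2 or 3 or DNase-treated replicate 2 or 3 (up to 0.0796), and Bcl2l1 without ATEV replicate 2 or 3 or DNase-treated replicate 1 or 2 (up to 0.228) or with the replicate block. Icam1 and Cxcl16 were kept without ATEV replicate 1 alone (up to 0.176 and 0.0927 in the other fits), and the Icam1 call ended with no filter.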

How the data were processed

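The data are whole-number counts per Ensembl gene, 1 column per library, deposited by the authors without normalization. The library kit was TruSeq stranded mRNA (labels' protocols). Per the submitters' processing notes, the build is mm9 and the tools include Cufflinks 2.1.1, TopHat, TopHat2 2.0.11 and bcl2fastq 2.19. The counter, annotation and strand setting are not given in the sources used here. Of 42687 identifiers 42250 matched a GENCODE M21 symbol. Gene coordinates of that annotation were not printed because its build differs from mm9; promoter windows are RefSeq's, on GRCm38.p6.

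Counts were fitted in R 4.3.3 with edgeR 4.0.16: filterByExpr (minimum count 10, minimum total 15), TMM scaling, and a quasi-likelihood model with 1 mean per group over all 12 libraries (common biological coefficient of variation 0.183). P-values are two-sided and adjusted by Benjamini-Hochberg over all 13261 genes of a comparison, and a gene is called under 0.05. Each standard error was derived from its F statistic, and levels are CPM after TMM scaling. The alternatives were RLE scaling, no filter, DESeq2 1.42.0, limma-voom (limma 3.58.1), the 6 libraries compared alone, a replicate block and each library left out. Scripts were tested on simulated data.

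Members, lists and the rule for named genes (all 38 members; up to 4 called genes a list and comparison, by adjusted p) were chosen with earlier results of these data known. No 2 libraries of a group were duplicates: chi-square over degrees of freedom was 13.6 to 119. Standard errors of tested genes include the spread between libraries. Counting intervals cover counting error only.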

Additional observations from a re-analysis of the deposited data

How the results depend on the processing

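Over the 20 calls of members, 239 alternative values were computed; none changed direction, 147 kept the call and 92 lost it, mostly with a library left out. Of 1792 alternative values of the 150 uncalled differences, 34 passed the threshold and 110 changed sign without a call in either fit. RLE scaling moved the median of all genes by no more than 0.005 and kept every count of called members, as did limma-voom other than 8 in place of 11 for NTEV over PBS. Where a count moved, the cause was not tested. Called members for ATEV over PBS were 6, and 12 with no filter; for NTEV over PBS 11, and 1 on the 6 libraries alone; for ATEV over DNase-treated ATEV 3, and 5 with no filter and 7 with DESeq2; for ATEV over NTEV 0, and 1 with DESeq2. With 1 library left out the counts ran from 2 to 4, 1 to 13, 1 to 4 and 0 to 0, and stayed 0 to 0 for DNase-treated ATEV over PBS.

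Over all genes, the 628 calls for ATEV over PBS became 1317 with no filter, 1518 with DESeq2, 1244 on the 6 libraries, 1440 with the replicate block and 169 to 849 with a library left out. The 0 calls for DNase-treated ATEV over PBS became 47, 35 and 1 with no filter, DESeq2 and the replicate block, and 0 to 8 with a library left out. The 306 calls for NTEV over PBS became 876 with no filter, 839 with DESeq2, 19 on the 6 libraries and 34 to 1685 with a library left out. The 194 calls for ATEV over DNase-treated ATEV became 394 with no filter, 495 with DESeq2 and 78 to 522; the 124 for ATEV over NTEV became 242, 370, 82 on the 6 libraries and 70 to 302. Calls split into higher and lower as 440 and 188 for ATEV over PBS, against 871 and 647 with DESeq2, 726 and 518 on the 6 libraries and 801 and 639 with the replicate block. For ATEV over DNase-treated ATEV the split was 175 and 19, against 358 and 137 with DESeq2, and for ATEV over NTEV 116 and 8, against 262 and 108.

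Replicate numbers did not pair the samples throughout: correlations of same-numbered deviations ran from -0.382 to 0.519 across the 5 comparisons, and at most 3 of 6 samples correlated best with their own number. The highest were those of replicate 1, at 0.519 for NTEV with PBS and 0.440 for DNase-treated ATEV with PBS. A batch shared by part of the same-numbered libraries was not tested. With the replicate block, called members numbered 6, 0, 9, 4 and 0 for ATEV, DNase-treated ATEV and NTEV over PBS, ATEV over DNase-treated ATEV and ATEV over NTEV. Il1b, Il6, Cxcl1 and Vcam1 had too few counts to be tested, and the part of sequencing depth in this was not tested. The 24 calls of pathway genes outside the member list were also refitted under these settings, an addition chosen after seeing the data; none changed direction, 18 held under all settings other than a left-out library, and the others are Ikbkg, Irak3 and Cxcl16 for NTEV over PBS, Bcl2l1 and Icam1 for ATEV over DNase-treated ATEV and Casp1 for ATEV over NTEV, all lost on the 6 libraries alone. The replicate block also ended Cxcl16 for NTEV over PBS and Bcl2l1, limma-voom ended that Cxcl16 call, and no filter ended Icam1.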
